A study of Mus musculus with 2 samples.

Results

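RNA of 5 transcription factors that build the spleen before birth or pattern its stroma, Tlx1, Nkx2-3, Nkx3-2, Wt1 and Tcf21, was examined in mouse spleen. They were chosen by name, as factors needed for spleen formation or for the arrangement of its stromal cells, and every probe set that the platform's annotation assigned to them was taken. That gave 4 probe sets for 4 of the 5 genes, 1 each, among 8251 genes that had a probe set of their own. In that annotation no probe set carried the symbol, an older symbol or the gene identifier of Tlx1, so Tlx1 was not analysed here. Spleen total RNA bought from Clontech was hybridised to 2 arrays, which form 1 group, called array 1 and array 2. The labels give no strain, sex, age or number of animals, name no treatment and do not say whether both arrays came from separate RNA, so the spread between them may be technical. With 1 group of 2 arrays, every value below is a description and no difference was tested.

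The spleen arises from mesenchyme beside the stomach. Homeodomain proteins such as Tlx1, Nkx3-2 and Nkx2-3, the zinc finger protein Wt1 and the basic helix-loop-helix protein Tcf21 act in that mesenchyme, and mice that lack Tlx1, Wt1, Nkx3-2 or Tcf21 form no spleen or only a remnant. Nkx2-3 is known for a later role: without it the spleen is small and its marginal zone, vessels and white pulp are disordered, and the vascular adhesion molecule Madcam1 is lost. In adult organs such factors are expressed mostly by stromal, vascular or mesothelial cells, which are few beside the blood cells of the spleen. In RNA of a whole organ, fewer cells of a type and less RNA per cell cannot be told apart.

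The table held 1 intensity per probe set on a linear scale, with medians of 226.65 on array 1 and 226.4 on array 2. Background was read from 15 control probe sets for bacterial genes that have no target in mouse RNA, the top one of which gave 95 on array 1 and 76.2 on array 2. Bright below means above the 60th percentile of non-control probe sets on each array, 346.32 on array 1 and 342.22 on array 2. Of blood cell markers of spleen, 9 of 9 measured genes were bright, among them Cd79a, Cd79b and Cd22 of B cells, Cd3e of T cells and Alas2 of red cell precursors. Of pancreas markers, 8 of 10 were also bright. Among all 8251 genes with a probe set of their own, 45.2% were bright.

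The 4 measured factors differed in whether their signal left the background. Tcf21 lay far above it on both arrays and Wt1 lay above the bacterial controls on both, while Nkx2-3 and Nkx3-2 each passed the top bacterial control on 1 array and fell below it on the other. Thus 2 of 4 passed on both arrays, against 70.1% of the 6178 named genes that, like them, had 1 probe set, and 73.9% of all named genes. Passing on 1 array only was seen for 2 of 4, against 7.51% of genes with 1 probe set and 7.19% of all named genes. Only Tcf21, 1 of 4, was bright, against 41.3% of genes with 1 probe set and 45.2% of all named genes. With 4 genes these counts describe the members and do not set the group apart. Because brightness depends on the sequence of a probe as well as on its transcript, the members are not ranked against each other.

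Tcf21, also called capsulin or Pod1, is a basic helix-loop-helix factor of mesenchymal and fibroblast lineages whose loss leaves no spleen. Its intensity was 1176.1 on array 1 and 1214.4 on array 2, a mean of 1195 ± 27.1 (SD, n = 2 arrays here and below). Both values lay close together, at the 86.9th and 87.4th percentiles of their arrays, and were 12.4 and 15.9 times the top bacterial control. The log2 difference, array 2 minus array 1 after centring, was 0.05, within the 0.201 that 1 SD of such a difference came to among probe sets of like signal. Tcf21 was thus measured alike on both arrays, and it was the only member that also exceeded every opposite-strand control described next.

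Wt1, a zinc finger factor of the mesothelium and of the mesenchyme derived from it, is needed for the spleen primordium to survive. Its intensity was 201.9 on array 1 and 204.1 on array 2, a mean of 203.0 ± 1.56. The arrays all but coincided, with a log2 difference of 0.02. Among probe sets of like signal, most of them dimmer than Wt1, 1 SD of a difference was 0.739. It was 0.331 in the next brighter group, which began at a geometric mean of 222.4. Wt1 was 2.13 and 2.68 times the top bacterial control, near the middle of each array at the 47.3rd and 47.6th percentiles, and below the brightness threshold. A second kind of control gave a higher background. The 15 control probe sets with the suffix _st, which in Affymetrix naming marks the opposite strand of spiked and housekeeping transcripts, ranged between 9.9 and 368.3 on array 1 and between 15.1 and 440.1 on array 2, and 5 of them on array 1 and 6 on array 2 exceeded Wt1. Above the highest of these controls on both arrays lay 36.3% of the genes with 1 probe set. The Wt1 values were therefore close on these arrays but lay inside the range of those controls, and whether they came from Wt1 RNA was not tested.

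Nkx2-3 is a homeodomain factor of gut and spleen mesenchyme and of the vessels through which lymphocytes enter. Its intensity was 101.7 on array 1 and 54.3 on array 2, a mean of 78.0 ± 33.5. Its value was 1.07 times the top bacterial control on array 1 and 0.713 of it on array 2, close to background on each. The log2 difference of -0.90 compares with 0.739 for 1 SD of a difference among probe sets of like signal, 20% of which were at least as far apart. Nkx3-2, also called Bapx1, is a homeodomain factor of the axial skeleton and of the stomach and spleen mesenchyme. Its intensity was 23.5 on array 1 and 121.1 on array 2, a mean of 72.3 ± 69.0. The first value lay near the median of the bacterial controls, 20.6 on that array, and the second was 1.59 times the top one. The ratio of the intensities as deposited was 5.15. With values under 41.8 raised to that floor, the 20th percentile of each array, the log2 difference was 1.54, and without a floor it was 2.37. Of probe sets of like signal, 5.8% were at least as far apart as Nkx3-2 with the floor. For both Nkx genes at least 1 of the values was not above background, so neither the size nor the direction of the gap is a measured difference.

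**Figure D1:**
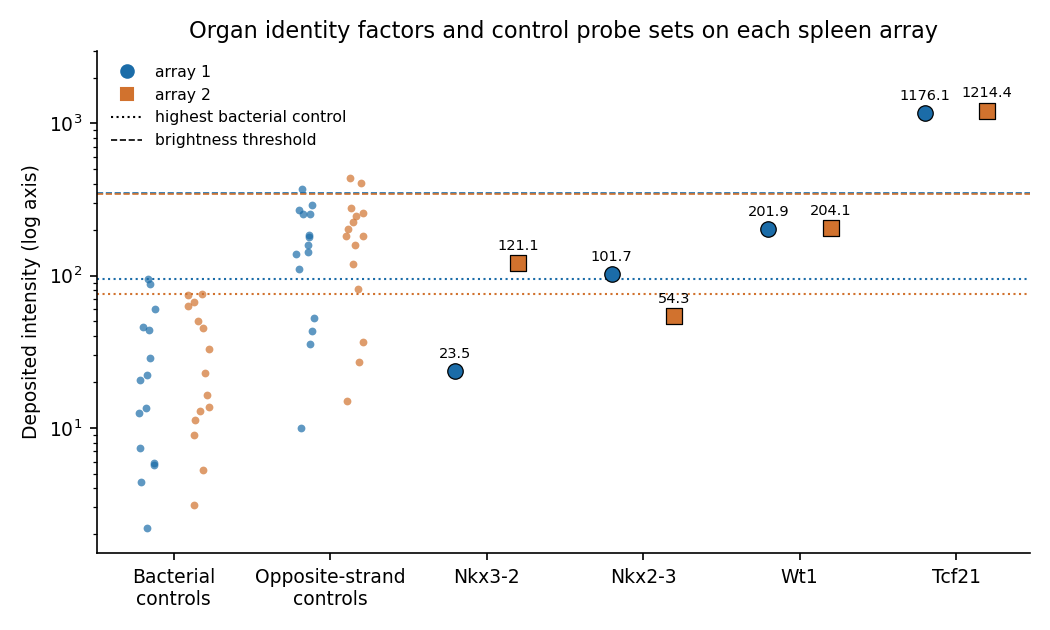
Intensity (log axis) of 4 organ identity factors on array 1 (circles) and array 2 (squares), beside the 15 bacterial and 15 opposite-strand control probe sets as small points. Dotted lines mark the top bacterial control of each array (95 and 76.2) and dashed lines the brightness threshold (346.32 and 342.22); Tcf21 lies above all controls, Wt1 among the opposite-strand controls, and Nkx2-3 and Nkx3-2 on both sides of the dotted lines.

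The plot of differences against signal shows where the members fell among all named genes. Probe sets were split into 4 bins of equal size by mean log2 signal, and probe sets of like signal are those of 1 bin. Nkx2-3, Nkx3-2 and Wt1 fell in the bin with geometric means (after the floor) from 61.0 to 222.2, whose pooled SD was 0.522 for 1 array and in which 17.6% of probe sets differed more than 2-fold. Tcf21 fell in the brightest bin, whose pooled SD was 0.142 and in which 3 of 3106 probe sets differed more than 2-fold. In the bin of Wt1, 97.2% of probe sets were at least as far apart as Wt1, which lay near the upper end of that bin.

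**Figure D2:**
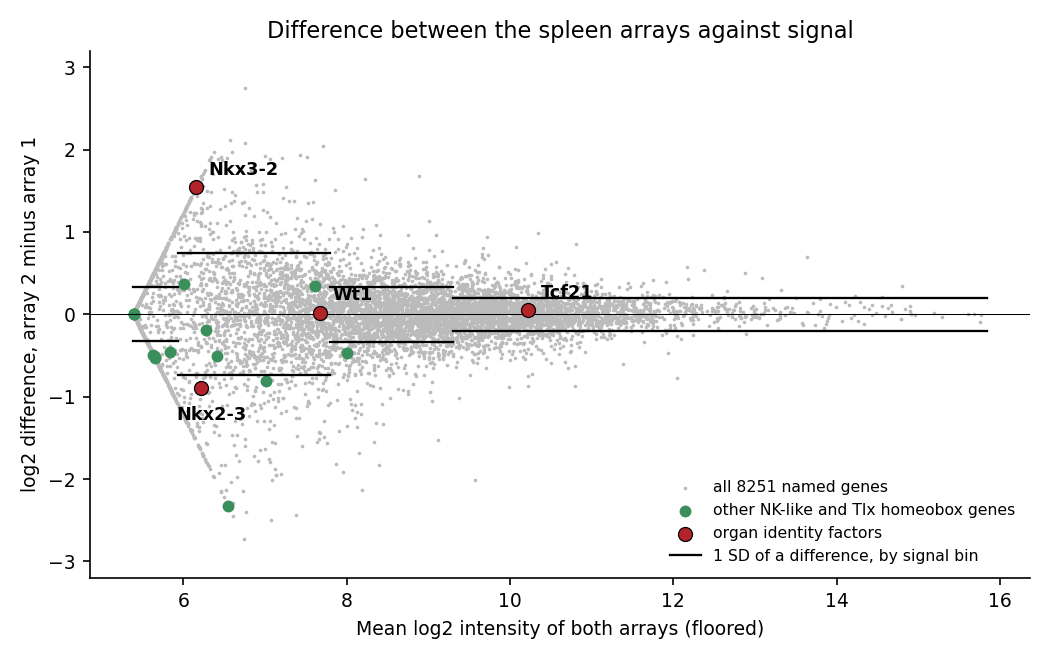
Log2 difference between the arrays (array 2 minus array 1) against mean log2 intensity, floored at 41.8, for all 8251 named genes in grey, 14 other NK-like and Tlx homeobox genes in green and 4 organ identity factors in red. Black lines mark 1 SD of a difference in each signal bin; Wt1 (0.02) and Tcf21 (0.05) lie near 0, while Nkx3-2 (1.54) and Nkx2-3 (-0.90) lie outside the lines. The slanting grey edges are genes at the floor on 1 array.

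The sequences upstream of the bright member and of the pair near background are shown for comparison, as the 250 bases before the start in RefSeq's mouse assembly GRCm38.p6. The arrays measured no binding or chromatin there. Capitals mark matches, on either strand, to the E-box CANNTG bound by helix-loop-helix proteins, the CCAAT box CCAAT, the GC box GGGCGG, the TATA box TATAAA, or TNAAGTG, a motif of NK homeodomain proteins. Tcf21 lies on the minus strand at chr10:22820144-22820393, Nkx2-3 on the plus strand at chr19:43612075-43612324 and Nkx3-2 on the minus strand at chr5:41764221-41764470.
Tcf21: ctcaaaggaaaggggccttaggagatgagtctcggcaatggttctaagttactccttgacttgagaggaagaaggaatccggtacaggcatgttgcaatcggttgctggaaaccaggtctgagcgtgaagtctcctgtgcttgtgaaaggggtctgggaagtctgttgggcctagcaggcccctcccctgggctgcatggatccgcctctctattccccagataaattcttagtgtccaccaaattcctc
Nkx2-3: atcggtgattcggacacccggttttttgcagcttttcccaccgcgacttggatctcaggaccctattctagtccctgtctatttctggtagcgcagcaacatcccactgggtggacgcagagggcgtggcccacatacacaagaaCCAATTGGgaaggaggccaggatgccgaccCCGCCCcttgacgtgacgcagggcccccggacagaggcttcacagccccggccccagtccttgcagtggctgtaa
Nkx3-2: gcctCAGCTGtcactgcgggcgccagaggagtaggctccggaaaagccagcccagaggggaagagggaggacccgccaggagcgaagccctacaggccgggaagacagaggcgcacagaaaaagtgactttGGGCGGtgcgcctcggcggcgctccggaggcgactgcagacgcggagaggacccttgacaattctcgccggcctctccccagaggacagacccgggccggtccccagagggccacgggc

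The Tcf21 window held 5 CpG dinucleotides and 52.4% G and C and matched none of the 5 motifs. Over 32536 such windows the medians were 6 and 52.4%. The windows of Nkx2-3 and Nkx3-2 were richer, with 14 and 21 CpG dinucleotides and 60% and 68.8% G and C. The run CCAATTGG of Nkx2-3 holds a CCAAT box on each strand, and both overlap an E-box, and a GC box follows nearer the start. Nkx3-2 has 1 E-box and 1 GC box. Over all windows an E-box was found in 66.2%, a CCAAT box in 33.8%, a GC box in 33.0%, a TATA box in 12.3% and the NK motif in 10.0%. A match here describes letters and not a bound site. The Tlx1 window held 1 E-box and 1 CCAAT box, with 15 CpG dinucleotides. Tlx1 and Nkx2-3 lie on the same chromosome, 19, with 30 protein-coding genes between them.

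Relatives of the members by protein family were measured in the same way. Passing, here and in the lists below, refers to the bacterial controls only. The highest opposite-strand control was 368.3 on array 1 and 440.1 on array 2. Like Wt1, genes that passed but lay under those values were inside the range of the opposite-strand controls. Whether their signal came from their own RNA was not tested. Among them were Lefty1, Acvr2b, Lta, Tnf, Pdgfrb and Synpo, given below. Of 14 other NK-like and Tlx homeobox genes, 3 passed the top bacterial control on both arrays, against 73.9% of all named genes. These 3 were Tlx2 at 134 ± 51.8, Nkx1-2 at 197 ± 32.8 and Msx1 at 260 ± 59.7, all inside the range of the opposite-strand controls. Bright genes were 0 of the 14, against 45.2% of all named genes. Tlx3, the other paralogue of Tlx1, gave 56.8 and 73.5, below the top bacterial control on both arrays. Nkx2-3 and Nkx3-2 were therefore not alone in their family in lying near background. Of 7 helix-loop-helix factors related to Tcf21, 4 passed on both arrays, against the same 73.9%. They were musculin, Msc, at 281 ± 27.1, the tendon factor Scx at 614 ± 178, Twist2 at 240 ± 86.7 and Hand1 at 315 ± 107, of which Scx alone was bright. Msc and Twist2 lay inside the range of the opposite-strand controls, as did Egr2, given below. A second Hand1 probe set gave 98.7 and 143.1. Tcf15, a somite factor, gave 91.5 and 112.0 and passed on array 2 only. Of the zinc finger relatives of Wt1, Egr1 gave 531 ± 152 and Egr2 gave 324 ± 24.5, and Egr1 alone of these 2 was bright. A second Egr1 probe set gave 10.2 and 53.2, within the bacterial controls.

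Partners of the members passed in part. Of 7 measured factors that bind with homeodomain proteins or mark the spleen primordium, 3 passed on both arrays and the same 3 were bright. For this list and the next, the shares among all named genes were 73.9% passing and 45.2% bright. The 3 genes were the TALE homeodomain genes Pbx2 at 460.3 ± 0.424, Pbx3 at 657 ± 30.2 and Pknox1 at 595 ± 1.84. Other Pbx3 probe sets gave 272.8 and 276.7, and 279.9 and 234.9, which passed on both arrays but were not bright. Meis1, a TALE gene of blood stem cells, gave 38.5 and 49.7, and Meis2 gave 69.4 and 44.9, each under the top bacterial control throughout. Nkx2-5, a cardiac factor that also marks the early spleen, gave 82.9 and 72.8, and Barx1, a stomach mesenchyme factor, gave 102.0 and 71.3. A second Barx1 probe set gave 45.3 and 31.4. Nkx2-5 and Barx1 are also counted among the NK-like and Tlx genes above. Of 4 left-right patterning genes, whose loss can remove or split the spleen, Lefty1 at 289 ± 36.6 and Acvr2b at 266 ± 41.4 passed on both arrays, Nodal (49.6 and 81.7) and Cfc1 (77.3 and 82.2) passed on array 2 only, and 0 were bright. A second Lefty1 probe set gave 16.1 and 12.4, within the bacterial controls.

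Of 4 measured genes described downstream of these factors or in the stroma they build, 2 were bright, Madcam1 and Cxcl13. The share of bright genes among all named genes was 45.2%. Madcam1, the adhesion molecule of marginal sinus and gut vessels that depends on Nkx2-3, gave 664.4 on array 1 and 734.1 on array 2 with its brighter probe set and 442.8 and 442.5 with the other, and both were bright. Both of its probe sets were above the bacterial controls on each array, whereas Nkx2-3 was close to them on each. Cxcl13, the chemokine of follicular stroma that draws B cells, gave 1613 ± 109. The T zone chemokines Ccl19 and Ccl21a were each read by a probe set that names several gene copies, which gave 3352.3 and 3361.9 for the first and 4728.9 and 6389.5 for the second. The cell cycle inhibitor Cdkn2b, at 27.7 and 30.6, and the retinoic acid enzyme Aldh1a2, at 18.5 and 31.3, lay within the bacterial controls. Of the lymphotoxin axis, by which lymphocytes organise this stroma, 7 of 7 genes passed on both arrays and 5 were bright. Among all named genes 73.9% passed and 45.2% were bright. The ligand genes Lta and Tnf gave 361.3 and 329.1, and 160.1 and 114.6, and were not bright. A second Lta probe set gave 262.6 and 275.7. Bright ones included the ligand Ltb at 4764 ± 107, its receptor Ltbr at 446 ± 85.8, the TNF receptor Tnfrsf1a at 714 ± 148 and the transcription factor subunits Nfkb2 at 851 ± 21.3 and Relb at 625 ± 3.39. Second probe sets of Tnfrsf1a (201.0 and 247.7) and Relb (263.7 and 224.6) passed on both arrays but were not bright.

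Markers of the cells that could carry the members were set beside them. Of 15 mesenchymal and reticular cell markers 12 passed on both arrays and 10 were bright, against 73.9% and 45.2% of all named genes. The bright ones included Col1a1 at 935 ± 4.74, Dcn at 2094 ± 63.9 and Vcam1 at 7300.4 ± 184. Other Vcam1 probe sets gave 412.4 and 394.8, and 1585.2 and 1785.3. A second Col1a1 probe set gave 587.4 and 620.9. Pdgfra gave 774.9 and 732.0 with the probe set used, 295.7 and 47.7 with another and 51.6 and 34.2 with the last. Pdgfrb, a receptor of pericytes and reticular cells, gave 192 ± 20.2. Vim, a filament protein of mesenchymal cells and leukocytes, did not pass on both arrays, at 99.5 and 54.7, nor did the proteoglycan Lum, at 101.3 and 67.6, or Pdpn of T zone reticular cells, at 68.9 and 27.4. Vim, Lum and Pdpn were each read by 1 probe set, and whether a low value came from the probe set or the RNA was not tested. Of 5 mesothelial markers, relevant because Wt1 marks mesothelium, Upk3b was bright at 371.3 and 474.4. Msln, at 34.4 and 23.3, Krt8, at 48.1 and 48.9, and Krt19, at 12.0 and 14.3, lay within the bacterial controls, and Krt18 gave 68.9 and 106.3. Second probe sets of Krt18 (14.9 and 19.6) and Krt19 (5.7 and 9.8) lay within the bacterial controls. Of 5 podocyte and gonadal markers, whose cells also express Wt1, Podxl gave 36.2 and 22.5, Amh 76.1 and 85.4, and Inha 43.9 and 59.8, while Synpo, at 189 ± 10.1, passed on both arrays. Nr5a1 was the bright one of these, at 2357.4 and 2371.3 with 1 of its 5 probe sets, and at 5.3 and 5.8 with another.

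Among the pancreas markers the acinar genes Cela1, Cela2a and Ctrb1 gave 8880 ± 57.6, 974 ± 92.3 and 24153 ± 1240, whereas the islet hormone genes Ins2 and Gcg gave 308 ± 10.4 and 17.95 ± 5.02. A second Ins2 probe set gave 29.8 and 29.0. Pancreas has mesenchyme and mesothelium of its own, and whether part of the Tcf21 or Wt1 signal came from it was not tested.

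**Figure D3:**
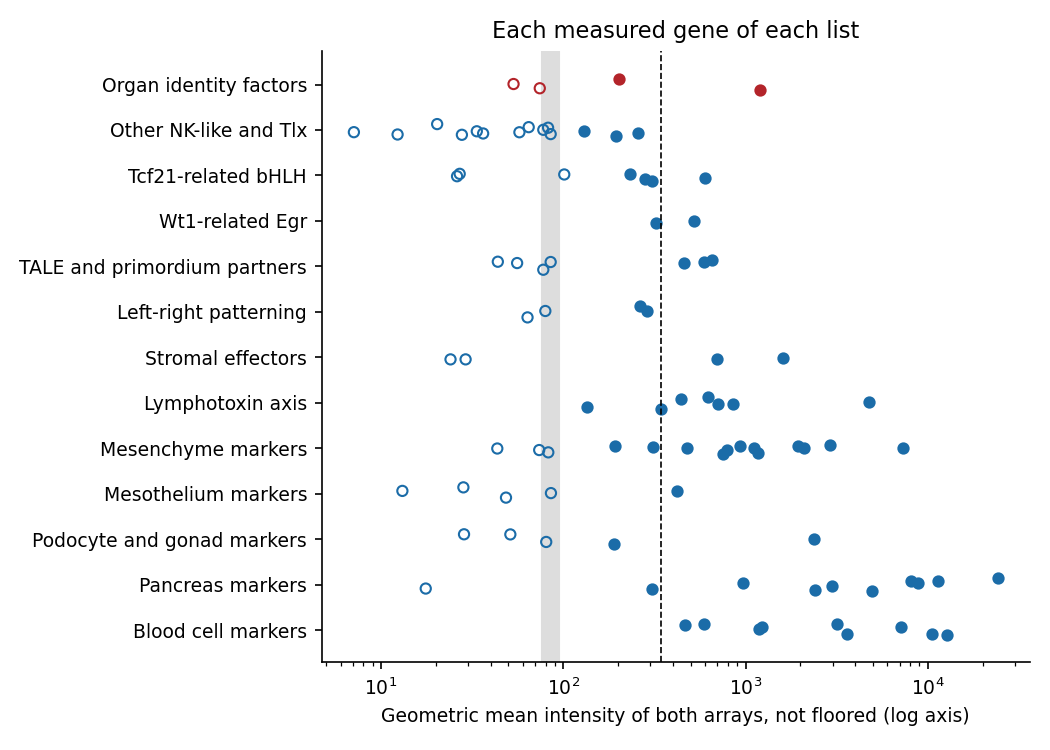
Geometric mean intensity of both arrays (log axis, not floored) for each measured gene of 13 lists, with filled points for genes that passed the top bacterial control on both arrays and open points for the others. The grey band spans the top bacterial control of the arrays (76.2 to 95) and the dashed line is the brightness threshold; the 4 organ identity factors, in red, span the range from the open points near the band to Tcf21, and 0 of the 14 other NK-like and Tlx genes lie right of the dashed line.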

How the data were processed

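The deposited value table holds an intensity for each probe set on either array, on a linear scale judged by its range; the software, detection calls and genome build are not given in the sources used here. Control probe sets (66 with the AFFX prefix) stayed out of percentiles and counts. Genes were named from the platform's annotation, by probe sets that name a single gene; where a gene had several, the one with the highest mean log2 signal was used. For log2 values, intensities below the 20th percentile of their array (41.8) were raised to it, and differences between arrays were shifted so that their median over bright probe sets was 0. Errors are SDs over 2 arrays; pooled SDs come from the log2 differences in a signal bin, by a routine tested on simulated data. Named genes were all members, the first 3 measured genes of each other list, and genes behind counts of 5 or fewer; further ones (Nr5a1, Nkx2-9, Nkx2-5, Barx1, Cd3e, Alas2, Nfkb2, Relb, Ltbr, Col1a1, Dcn and Vcam1 among them) were picked after their values were seen. The members and lists were chosen with earlier results of these data known. Promoter sequences were matched by symbol for 4 of 5 members. Alternatives were quantile normalization, no floor, a pseudocount of 16, no centring, the mean over probe sets, each array alone, brightness at the 50th or 75th percentile, and other background controls. Python 3.11.15, numpy 2.4.6, pandas 2.3.3 and matplotlib 3.10.9 were used.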

Additional observations from a re-analysis of the deposited data

How the results depend on the processing

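The counts, levels and differences of the 4 members were recomputed. Of 61 recomputed values 58 stayed within the spread or within 1.5 times of the count. The 8 levels read from 1 array are among them by construction, since leaving out 1 of 2 values moves a mean by less than their SD; they ran from 5.76 to 6.67 for Nkx2-3 and from 5.39 to 6.92 for Nkx3-2. The level of Wt1 rose to 7.77 from 7.67 on the log2 scale with a pseudocount of 16, which exceeds the very small SD of its 2 values. The difference of Nkx3-2 was 2.37 with no floor. Set against the highest opposite-strand control, a background chosen after the data were seen, 1 member (Tcf21) passed on both arrays in place of 2; with the median of those controls the count was 2, again Wt1 and Tcf21. Read from 1 array, 3 members passed the top bacterial control: Nkx3-2, Wt1 and Tcf21 on array 2, and Nkx2-3, Wt1 and Tcf21 on array 1. A count of 3 against 2 still lay within 1.5 times, although the genes that passed had changed. Tcf21 was the 1 bright member under each alternative run. The mean over probe sets cannot change a member, since each has 1, and no floor or pseudocount can change these counts. Dropping the floor also cannot move Tcf21, Wt1 or Nkx2-3, whose values all lay above it. Part of the 58 was therefore fixed in advance. No paired analysis was possible because there was only 1 group. An array has no read depth; 2 arrays limit the precision, and members near background have no reliable level.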

Other observations

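Nr5a1, a nuclear receptor of the adrenal gland and gonads that is also needed for the vessels of the spleen, was read by 5 probe sets that disagreed. One gave 2357.4 on array 1 and 2371.3 on array 2, and others gave 392.7 and 421.4, 210.6 and 277.4, 10.7 and 55.1, and 5.3 and 5.8. The last 2 pairs lay within the bacterial controls. Nr5a1 was singled out after its values were seen.

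Among the 14 other NK-like and Tlx genes, 10 were lower on array 2 than on array 1, and 5 of them by more than 2-fold as deposited, against 50.2% and 10.4% of the 4520 named genes that were not bright. The 5 were Nkx2-9, at 210.8 on array 1 and 32.3 on array 2, and Nkx2-2, Nkx2-6, Hmx1 and Hmx3, which lay below the top bacterial control on both. With the floor applied, 1 of the 14, Nkx2-9, was lower by more than 2-fold, against 4.73% of those genes, and the family's median log2 difference was -0.47, against 0.00 for all named genes. The members Nkx2-3 and Nkx3-2, which are not among the 14, went opposite ways, the first lower and the second higher on array 2. Of the 14, 9 lay below the top bacterial control on both arrays, against 1564 of the 4520, so the compared groups differ in level. These genes lay near background, the pattern was noticed in these arrays, and it was not tested.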
